A study of Mus musculus and Homo sapiens with 12 samples.

Results

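Mouse B2 elements are the short interspersed elements (SINEs) that the deposited repeat annotation of mm10 puts in class SINE and family B2. Of the 3158171 repeat elements in the mouse table, 358356 were B2 elements, in 5 subfamilies: 17290 B2_Mm1a, 22222 B2_Mm1t, 85630 B2_Mm2, 143571 B3 and 89643 B3A. The rule uses the annotation alone and no count. The libraries were sequenced from chromatin-associated RNA (caRNA), the fraction left on chromatin after the rest of the nucleus is washed away, after precipitation with an antibody against 5-methylcytosine (m5C). 3 libraries came from wild-type (WT) mouse embryonic stem cells (mES cells) and 3 from Tet2-knockout (KO) mES cells. Both lines were gifts to the authors, were grown in serum with LIF and inhibitors of GSK3 and MEK, and were passaged on gelatin to clear feeder cells. The study calls its replicates biological, but whether those of a genotype were separate clones is not given in the sources used here, so p-values measure the spread between these libraries. The table lists repeats and no genes, so neither the loss of Tet2 nor markers of the stem cell state could be checked in it. TET2 oxidises methylated cytosine, and the comparison asks how B2 RNA in the m5C fraction differed when TET2 was missing.

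B2 elements are rodent SINEs that arose from a transfer RNA gene. A complete copy carries the A box and B box of a tRNA-type promoter, from which RNA polymerase III can transcribe it, and ends in an A-rich tail with poly(A) signals. B2 RNA can bind RNA polymerase II and repress transcription, for example after heat shock, and B2 copies have spread binding sites for the insulator protein CTCF through the mouse genome. B2_Mm1a and B2_Mm1t are the younger subfamilies, whereas B3 and B3A are older. Most copies lie in introns or between genes, so that a read from a B2 element can also come from a longer transcript that runs through it.

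The sequences below, from mm10, are single elements that the results return to, chosen by their p-values or counts and not as typical members of their subfamilies. All are printed 5′ to 3′ on the strand of the element, with the A box (letters GGCNNAGTG) and the B box (letters GTTCNANNC) in capitals. The 3 B2_Mm1a elements with the smallest p-values among those lower in KO each held both boxes, the 2 B2_Mm2 elements held the B box only, and the B3A and B3 elements held neither.
B2_Mm1a, chr4:46482495-46482687, minus strand: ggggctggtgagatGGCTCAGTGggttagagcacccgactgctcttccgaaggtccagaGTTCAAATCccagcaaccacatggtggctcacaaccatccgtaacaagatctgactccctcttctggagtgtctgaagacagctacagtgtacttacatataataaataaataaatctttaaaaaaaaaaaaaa
B2_Mm1a, chr9:66729962-66730154, plus strand: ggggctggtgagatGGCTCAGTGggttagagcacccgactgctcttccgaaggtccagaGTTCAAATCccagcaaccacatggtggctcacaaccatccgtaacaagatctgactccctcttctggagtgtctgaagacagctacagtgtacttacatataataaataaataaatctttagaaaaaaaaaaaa
B2_Mm1a, chr11:117364661-117364853, minus strand: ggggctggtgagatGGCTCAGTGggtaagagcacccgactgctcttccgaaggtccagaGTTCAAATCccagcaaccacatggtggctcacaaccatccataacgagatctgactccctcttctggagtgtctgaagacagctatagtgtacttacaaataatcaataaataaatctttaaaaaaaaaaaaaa
B2_Mm2, chr7:42860978-42861123, minus strand: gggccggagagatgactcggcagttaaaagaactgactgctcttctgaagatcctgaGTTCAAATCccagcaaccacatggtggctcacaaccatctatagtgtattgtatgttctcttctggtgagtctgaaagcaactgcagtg
B2_Mm2, chr7:42730170-42730315, minus strand: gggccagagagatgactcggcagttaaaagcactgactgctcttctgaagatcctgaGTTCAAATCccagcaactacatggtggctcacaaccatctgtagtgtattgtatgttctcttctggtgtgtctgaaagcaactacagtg
B3A, chr2:120945000-120945240, minus strand: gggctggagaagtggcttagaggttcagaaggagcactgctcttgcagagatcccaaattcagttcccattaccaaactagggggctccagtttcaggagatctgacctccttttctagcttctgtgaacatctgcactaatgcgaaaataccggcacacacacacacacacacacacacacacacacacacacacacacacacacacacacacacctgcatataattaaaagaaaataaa
B3, chr7:27863626-27863782, plus strand: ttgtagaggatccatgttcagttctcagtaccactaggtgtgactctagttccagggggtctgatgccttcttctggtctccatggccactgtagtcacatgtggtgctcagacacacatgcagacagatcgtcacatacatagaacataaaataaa
The 3 B2_Mm1a elements were each 193 bases long. The elements of chromosomes 4 and 9 differed at 1 base, and that of chromosome 11 differed from them at 6 and 7 bases. The 2 B2_Mm2 elements were 146 bases long and differed at 6 bases. The element of chromosome 4 shared its full sequence with 8 other B2 elements, so a read that lies wholly inside it matches all of these copies equally.

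Between 1532029 and 3318565 counts fell on repeats of the classes DNA, LINE, LTR and SINE in each library, and the WT libraries were deeper than all KO libraries. B2 elements received 26180, 28985 and 32085 of these counts in the WT libraries versus 17425, 19512 and 24318 in the KO libraries. Counts are fractional, with 40.6% of the non-zero B2 values below 1 and 39.8% whole numbers. Only 26294 B2 elements (7.34%) had any count. Detection followed the subfamily: 38.1% of B2_Mm1a and 20.8% of B2_Mm1t elements had counts, against 5.28% of B2_Mm2, 4.14% of B3 and 5.15% of B3A. Any value above zero was taken as a count here, and values below 1 were more frequent in the younger subfamilies. They were 48.8% of non-zero values in B2_Mm1a and 47.7% in B2_Mm1t, against 35.6% in B2_Mm2, 26.4% in B3 and 37.0% in B3A. Few elements were seen throughout. 18638 elements had counts in 1 library only, and 127 had counts in all 6, of which 49 were B2_Mm1a, 29 B2_Mm1t, 27 B3A, 16 B3 and 6 B2_Mm2. Of the 1104 B2 elements with at least 20 counts in total, 694 took at least 90% of them from a single library. This share was 60.0% for B2_Mm1a, 56.6% for B2_Mm1t, 62.0% for B3A, 78.7% for B2_Mm2 and 79.0% for B3.

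Levels per length were highest for B2_Mm1a and B2_Mm1t, the subfamilies with the largest share of elements holding an A box before a B box (65.0% and 40.4%). CPM (counts scaled to the same total of repeat counts in each library), divided by the annotated length of the subfamily in megabases, were 1304 ± 330.0 (SD, n = 3) in WT versus 1169 ± 324 in KO for B2_Mm1a. B2_Mm1t came next, at 549.6 ± 99.8 in WT versus 487 ± 289 in KO. B3A stood at 110.5 ± 17.8 in WT versus 177 ± 22.8 in KO, B3 at 63.0 ± 12.2 and 80.3 ± 11.8, and B2_Mm2 at 56.5 ± 18.4 and 106.6 ± 20.3. In the order of WT levels, B3 and B2_Mm2 did not differ beyond their spread, and in KO the highest B2_Mm1t library, at 817, lay close to the lowest B2_Mm1a library, at 876. Levels here are those of precipitated RNA and mix the amount of RNA with its m5C.

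**Figure D1:**
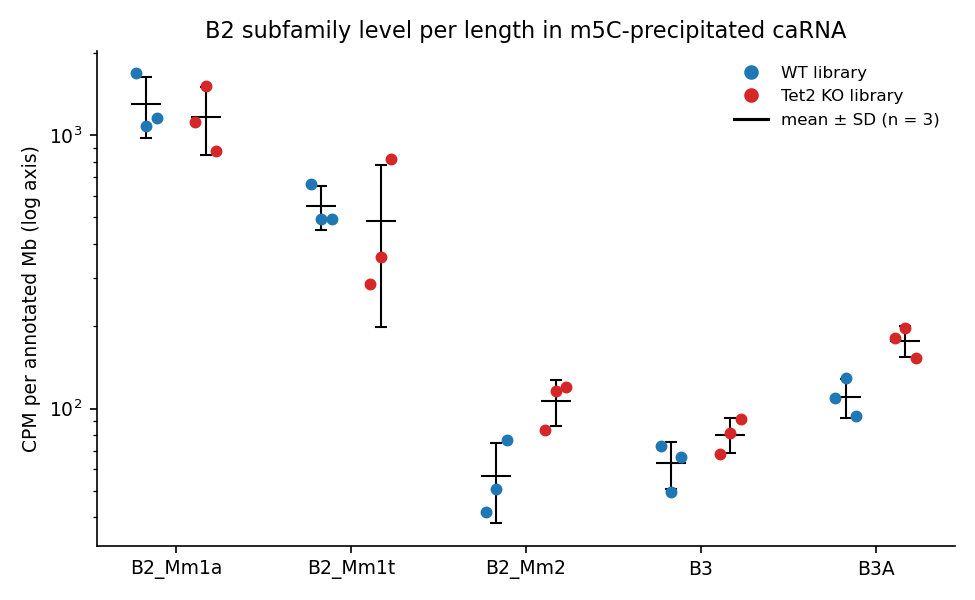
CPM per annotated megabase (log axis) of the 5 B2 subfamilies in the 3 WT and 3 Tet2 KO libraries (points), with the mean and SD of each genotype (black). B2_Mm1a and B2_Mm1t lie above the other subfamilies in every library, and B3A and B2_Mm2 have all KO points above all WT points on this scale.

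No B2 subfamily passed the test between genotypes. edgeR's quasi-likelihood test called 0 of the 5 B2 subfamilies at an adjusted p under 0.05, against 11 of all 546 repeat subfamilies tested (2.01%); 1 B2 subfamily, B3A, had an unadjusted p under 0.05, as did 15.9% of all subfamilies, and the DESeq2 Wald test also called 0. The directions were not the same in all subfamilies. B3A had normalised levels (CPM after TMM scaling) of 1610, 1954 and 1496 in WT versus 2490, 2677 and 1994 in KO, so that every KO library lay above every WT library. Its log2 change was 0.50 (SE 0.20, adjusted p = 0.295, edgeR). Such a separation, higher in KO, was seen for 11.2% of all subfamilies, and a separation in the lower direction for 10.6%.

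B2_Mm2 had 612, 761 and 1223 CPM in WT versus 1142, 1564 and 1564 in KO. The highest WT library overlapped the lowest KO library after TMM scaling, but not when counts were divided by library totals. The log2 change was 0.72 (SE 0.31, adjusted p = 0.303). B3 had 1919, 1327 and 1881 CPM in WT against 1668, 1955 and 2126 in KO, with a log2 change of 0.16 (SE 0.22, adjusted p = 0.751).

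The younger subfamilies had lower means in KO. B2_Mm1a had 5465, 3580 and 4047 CPM in WT versus 3375, 4519 and 2517 in KO, and the groups overlapped. Its log2 change was -0.33 (SE 0.26, adjusted p = 0.536), and it ranged from -0.55 without KO library 2 to -0.13 without WT library 1. B2_Mm1t had 2651, 2010 and 2118 CPM in WT versus 1058, 1312 and 2883 in KO. KO libraries 1 and 2 of this subfamily were below all WT libraries and KO library 3 was above them all. The log2 change was -0.37 (SE 0.38, adjusted p = 0.674), and it depended on single libraries, at -0.94 without KO library 3, -0.18 without KO library 2 and -0.11 without KO library 1 (adjusted p 0.186 to 0.922 over the alternatives). With library totals in place of TMM, the median change of all subfamilies moved from 0.11 to 0.29, and each B2 subfamily kept its sign, at -0.16 for B2_Mm1a, -0.17 for B2_Mm1t, 0.92 for B2_Mm2, 0.35 for B3 and 0.68 for B3A.

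The subfamilies of the other SINE families were mostly above zero too. None of the tested members of B1 (family Alu in the annotation, 15 subfamilies), B4 (4), ID (4) or MIR (5) was called, while 2 B1 subfamilies were under an unadjusted p of 0.05. The median log2 change was 0.16 over the 5 B2 subfamilies, 0.38 over B1, 0.36 over B4, 0.79 over ID and 0.28 over MIR, beside 0.11 over all 546. 3 of 5 B2, 13 of 15 B1, 4 of 4 B4, 4 of 4 ID and 3 of 5 MIR subfamilies were above zero, against 303 of all 546. B1_Mm, a B1 subfamily, had the highest change among these SINEs at 1.25 (SE 0.45, adjusted p = 0.238).

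**Figure D2:**
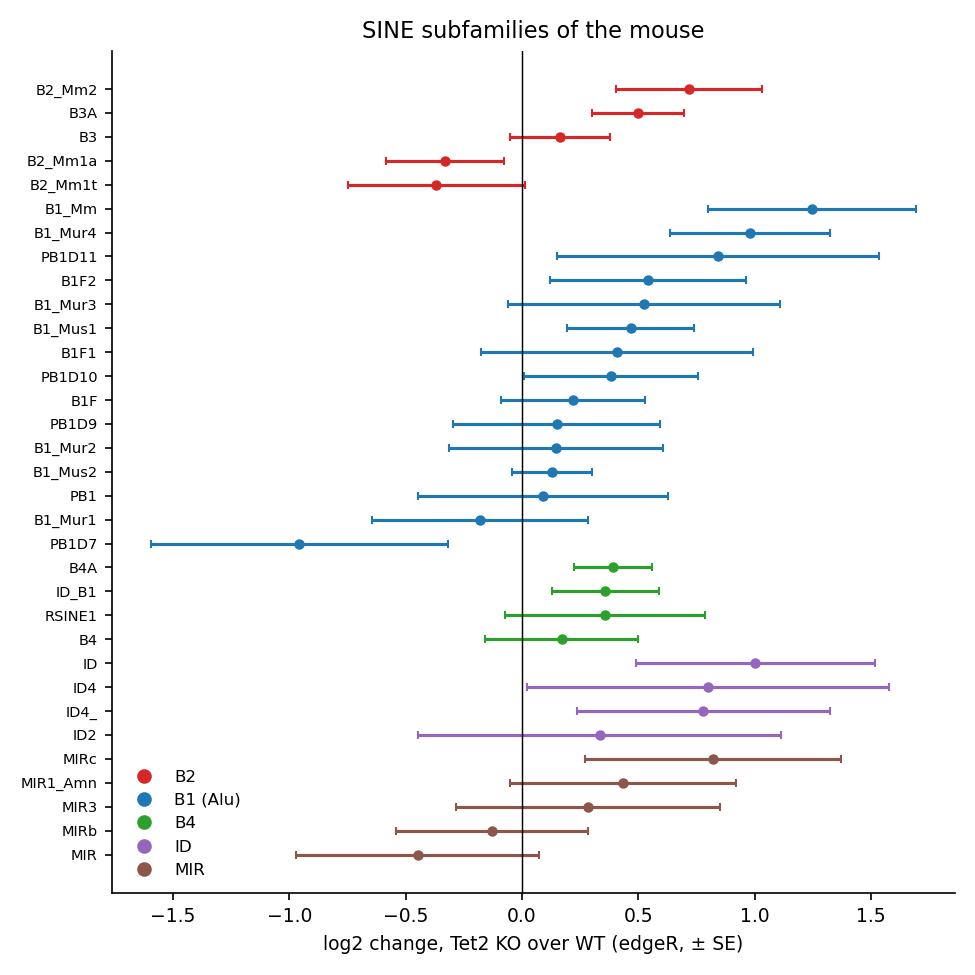
Log2 change in Tet2 KO over WT (edgeR, points, with SE as bars) for the subfamilies of B2, B1 (Alu), B4, ID and MIR, grouped by family and ordered by change within each. B2_Mm1a at -0.33 and B2_Mm1t at -0.37 lie left of zero, and B2_Mm2 at 0.72 and B3A at 0.50 lie right of it.

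Relative to B1, the other abundant SINE family of the mouse, B2 counts were lower in every KO library. B2 took 1.19%, 0.914% and 0.967% of the repeat counts of the WT libraries versus 1.01%, 1.27% and 1.22% of those of the KO libraries, and the groups overlapped (log2 ratio of means 0.19, exact permutation test, two-sided, p = 0.2). Within SINE counts, the B2 share was 43.5%, 37.9% and 44.2% in WT versus 29.9%, 38.1% and 37.4% in KO (log2 ratio -0.25, exact p = 0.2). KO library 2 lay just above WT library 2. The B1 share was 37.6%, 36.9% and 36.9% in WT versus 49.4%, 37.95% and 41.3% in KO, each KO library above all WT libraries. Its log2 ratio was 0.21 (exact p = 0.1, 0.25 after Benjamini-Hochberg adjustment over the SINE families). The log2 ratio of B2 to B1 counts was 0.21, 0.04 and 0.26 in WT versus -0.72, 0.0046 and -0.14 in KO. The difference of the means was -0.46 with no overlap, at the exact p of 0.1, which is the smallest that 3 libraries against 3 allow. Without KO library 1 the difference was -0.24 and the log2 ratio of the B1 share 0.094.

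The makeup of B2 counts differed from that of the annotated elements. B2_Mm1a and B2_Mm1t were 4.82% and 6.20% of B2 elements but gave 39.8% ± 4.17 and 20.7% ± 0.983 of B2 counts in WT (SD, n = 3), whereas B3, 40.1% of the elements, gave 15.6% ± 1.85. In KO, B2_Mm1a gave 31.7% ± 7.88, B2_Mm1t 15.9% ± 8.73 and B3 17.5% ± 1.5. The B2_Mm2 share was 5.00%, 7.90% and 11.4% in WT versus 11.7%, 13.001% and 14.1% in KO. The groups did not overlap, although the highest WT and lowest KO library lay close together (log2 ratio 0.68, exact p = 0.1, 0.333 after Benjamini-Hochberg adjustment over the 5 subfamilies). B3A gave 15.8% ± 3.93 in WT versus 21.9% ± 3.81 in KO, with overlap (exact p = 0.2). The ratio for B2_Mm1t, -0.38, was -0.93 without KO library 3 and -0.17 without KO library 1 or KO library 2, and that for B2_Mm2 was 0.43 without WT library 1.

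**Figure D3:**
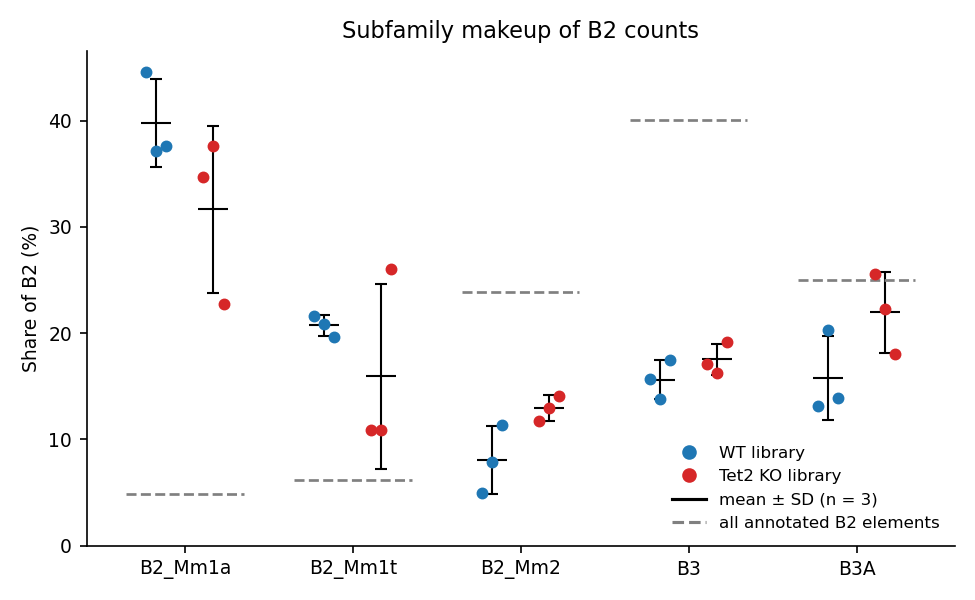
Share of B2 counts (%) from each subfamily in the WT and Tet2 KO libraries (points, with mean and SD of 3), beside the subfamily's share of annotated B2 elements (dashed line). B2_Mm1a and B2_Mm1t lie above their dashed lines in all 6 libraries, and B3 lies below its line in all 6.

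Elements that hold the A box letters gave a smaller share of B2 counts in KO. The A box letters were in 17.9% of all B2 elements with a reference sequence, and in 69.0% of B2_Mm1a, 45.6% of B2_Mm1t, 22.2% of B2_Mm2, 10.2% of B3 and 9.36% of B3A. Elements with an A box gave 62.9%, 55.1% and 58.0% of B2 counts in the WT libraries versus 44.4%, 46.0% and 45.1% in the KO libraries. All KO libraries were below all WT libraries, and the distance between the groups was larger than the spread within either (log2 ratio of means -0.38, exact permutation p = 0.1, the smallest possible, 0.125 after adjustment over the 5 motif measures). With the A box followed by a B box, as in the B2_Mm1a elements printed above, the shares were 59.3%, 52.9% and 53.2% in WT versus 39.5%, 44.0% and 41.5% in KO (log2 ratio -0.40, same p), and 10.8% of annotated elements held both in this order. The B box, with or without an A box, was in 34.2% of elements. These gave 72.9%, 65.7% and 67.9% of counts in WT versus 57.0%, 63.3% and 60.5% in KO (log2 ratio -0.19, same p). For the B box the exact p was 0.2 when the 10 highest B2 elements, WT library 1 or KO library 1 were left out in turn.

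Among the subfamilies, the A box share was apart between genotypes in B2_Mm1a. Within B2_Mm1a, elements with an A box gave 91.5%, 90.4% and 96.6% of the counts in WT versus 83.9%, 82.7% and 81.1% in KO, without overlap. Within B2_Mm1t the shares were 86.4%, 86.8% and 78.9% in WT versus 79.4%, 69.1% and 76.97% in KO, with overlap, and in B2_Mm2, B3 and B3A the genotypes overlapped as well. In B2_Mm1a elements without an A box, summed levels were 450.3, 328 and 124 CPM in WT versus 563, 830.2 and 522 in KO. Each KO library was higher than each WT library in this set, whereas the B2_Mm1a elements with an A box overlapped, at 4856, 3069 and 3511 CPM in WT versus 2947, 3955 and 2240 in KO. These CPM are on library totals without TMM scaling, where the median log2 change of all subfamilies was 0.29. On that scale the separation is less certain, and the split by A box within subfamilies was given no test.

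Motifs outside the promoter boxes had log2 ratios nearer zero (-0.18 and -0.15) than the A box (-0.38), as did the B box (-0.19). The poly(A) signal AATAAA was in 46.3% of elements, which gave 74.1%, 68.8% and 74.0% of counts in WT versus 59.5%, 61.7% and 70.05% in KO, with KO library 3 above WT library 2 (exact p = 0.2). Letters of the CTCF motif, CANNAGNGG on either strand, were in 35.1% of elements. These gave 63.9%, 61.6% and 62.7% of counts in WT versus 57.6%, 55.9% and 55.9% in KO, without overlap (log2 ratio -0.15, exact p = 0.1, adjusted 0.125), and the ratio was -0.093 without the 10 highest B2 elements. A match to these letters is a description of the sequence and does not show binding. Weighted by counts, a B2 element held 2.56, 2.52 and 2.52 CpG dinucleotides in WT versus 2.33, 2.02 and 2.15 in KO, against a mean of 1.32 over annotated elements. This CpG value was lower in each KO library, and the GC content weighted in the same way was 44.7% ± 0.292 in WT versus 45.4% ± 0.127 in KO.

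**Figure D4:**
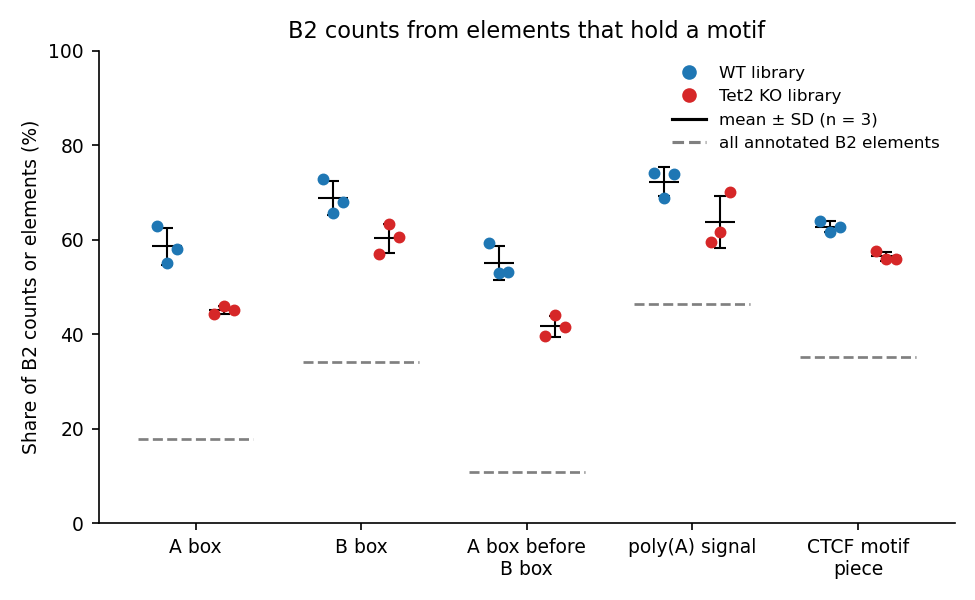
Share of B2 counts (%) from elements that hold a motif, in the WT and Tet2 KO libraries (points, with mean and SD of 3), beside the share of all annotated B2 elements that hold it (dashed line). For the A box the WT libraries lie between 55.1% and 62.9% and the KO libraries between 44.4% and 46.0%, and the poly(A) signal is the only motif whose groups overlap.

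The study read methylation of B2 RNA with bisulfite amplicons, and the primers it designed for B2_Mm1t match part of this A box set. They are shown because their targets gave a smaller share of B2 counts in each KO library. The p5 primer is written without its adapter, with the C-to-T converted A box in capitals, and the reverse transcription primer without its adapter and random bases.
B2_Mm1t p5 primer: ggggttggtgagatGGTTTAGTGg
B2_Mm1t reverse transcription primer: acaaataattataaaccaccatata
After C-to-T conversion of every element, both parts matched 5450 B2 elements exactly, of which 3193 were B2_Mm1a, 2044 B2_Mm1t and 188 B2_Mm2. How many of these hold the A box letters before conversion is not given here. The matched elements gave 27.8%, 27.4% and 29.7% of B2 counts in WT versus 16.5%, 18.5% and 18.6% in KO. Within B2_Mm1a counts, their share was 39.1%, 51.7% and 53.2% in WT versus 36.7%, 39.6% and 42.6% in KO, with overlap. Within B2_Mm1t counts, it was 47.9%, 38.1% and 44.9% in WT versus 34.3%, 32.6% and 34.0% in KO, without overlap. The primers for B2_Mm1a matched 3790 elements with 16.9%, 14.6% and 20.1% of counts in WT versus 13.8%, 10.9% and 7.16% in KO. Those for B2_Mm2 matched 1484 elements, with 0.138% to 0.646% of counts in all 6 libraries. These sets were looked at after the A box shares were known and were given no test.

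By position in genes, the genotypes were apart for introns on the same strand and for intergenic elements, and both separations rested on a few elements. With GENCODE M21 genes, 45.5% of B2 elements lay between genes, 23.0% in introns on the strand of the gene, 28.3% in introns on the opposite strand, and 3.23% overlapped an exon. Intergenic elements gave 44.1%, 38.2% and 44.5% of counts in WT versus 37.0%, 36.4% and 34.9% in KO (log2 ratio -0.23, exact p = 0.1, adjusted 0.2). Introns on the same strand gave 29.7%, 31.3% and 30.5% in WT versus 32.0%, 36.3% and 37.3% in KO (log2 ratio 0.21, exact p = 0.1, adjusted 0.2). Both pairs of groups were apart, though by less than 2 percentage points between the nearest libraries. Without the 10 highest B2 elements the log2 ratios were 0.065 for same-strand introns (exact p = 0.5) and -0.14 for intergenic elements (exact p = 0.3), and without the B3A elements of one region described last the same-strand ratio was 0.15 (exact p = 0.4). Introns on the opposite strand gave 24.1% ± 3.45 in WT versus 24.6% ± 2.45 in KO, and exons 3.12% ± 0.776 and 4.10% ± 0.989, with overlap. Whether reads were counted by strand is not given in the sources used here.

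Length classes did not separate the genotypes. Elements of at least 150 bases were 77.6% of B2 elements and gave 93.2% ± 1.77 of counts in WT versus 89.7% ± 4.17 in KO (exact p = 0.3). Elements of 100 to 149 bases gave 3.36% ± 0.819 and 5.19% ± 1.26 (exact p = 0.2), and shorter ones 3.42% ± 2.16 and 5.08% ± 3.65 (exact p = 0.6). Elements that covered their consensus to within 10 bases at both ends, 50.6% of the annotated ones, gave 72.4% ± 7.39 of counts in WT versus 61.9% ± 4.99 in KO, with overlap.

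Single B2 elements were sparsely covered, and 63 of them passed the filter on low counts: 30 B2_Mm1a, 16 B3A, 11 B2_Mm1t, 3 B2_Mm2 and 3 B3. edgeR called 0 of these 63, against 9 of all 19030 repeat elements tested (0.0473%). 8 B2 elements had an unadjusted p under 0.05, beside 21.0% of all tested elements. 5 of them were higher in KO (13.1% of all) and 3 lower (7.92% of all). The DESeq2 Wald test called 7 B2 elements, among 2158 of all elements. Groups were apart for 6 B2 elements in the higher direction, beside 15.1% of all tested elements, and for 7 in the lower direction, beside 12.6%. An element that is well covered in 1 genotype alone can pass the filter for that reason, so these counts are a description of the tested elements. Of the 7 lower elements 6 were B2_Mm1a, the other being a B3A. Among these 6, those at chr2:154940803-154940995 and chr6:74501405-74501597 had similar counts in each library. Of all 30 tested B2_Mm1a elements, 11 had a log2 change above zero. The median change was -0.74 over B2_Mm1a and 0.27 over B3A, beside 0.03 over all tested elements. Most of the 16 tested B3A elements start in the region of chromosome 8 described last, so the B3A median mainly describes that region. Both B3A elements with groups apart in the higher direction lie in it.

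The 3 elements with the smallest p-values among those lower in KO were the B2_Mm1a elements printed first above. The element of chromosome 4, 6561 bases from Nans (a sialic acid synthase gene), had 178, 235 and 93.0 counts in WT versus 1.5, 0.33 and 1.5 in KO. The log2 change was -5.09 (SE 0.77, unadjusted p = 0.000343, adjusted p = 0.0902). The element of chromosome 9 lies in an intron of Car12, a carbonic anhydrase gene on the same strand, and had 198, 53.2 and 32.2 counts in WT against 0.40, 0 and 1.40 in KO. edgeR gave a log2 change of -5.09 (SE 1.03, adjusted p = 0.101). Rounded counts pooled over libraries, and scaled to each genotype's total repeat counts, were 171-fold higher in WT (95% interval 30.5 to 6780, exact binomial, counting error only). This fold rests on a KO total near zero and leaves out the spread between libraries. The element of chromosome 11, 2336 bases from Sept9, a septin gene, had 48.7, 25.2 and 307.5 counts in WT versus none in any KO library. With a floor of 3 counts per KO library, the KO mean was at least 23.6-fold below the WT mean. WT library 3 carried most of that WT mean, at 92.7 CPM against 22.2 in WT library 1 and 7.95 in WT library 2. edgeR gave a log2 change of -5.52 (SE 1.11, adjusted p = 0.104), and -3.96 without WT library 3. In all 3, the WT libraries varied several fold among themselves, and every KO library was at or near zero.

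The B2_Mm2 elements printed above were the other way. The element at chr7:42860978-42861123, in an intron of the predicted gene Gm2381 on the same strand, had 1.00, 3.50 and 7.50 counts in WT versus 11, 10 and 17 in KO. Its log2 change was 2.03 (SE 0.49, unadjusted p = 0.00458, adjusted p = 0.104). The element at chr7:42730170-42730315, between genes, had 2.00, 13.2 and 10.0 counts in WT versus 24.5, 12.5 and 15.0 in KO, with a log2 change of 1.78 (SE 0.54, adjusted p = 0.140). On the CPM scale the groups were apart in both, while the raw counts of the second overlapped.

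The elements with the highest mean counts varied widely between libraries of one genotype. The B3A element on chromosome 2 at 120945000, which holds a run of CA repeats and lies in an intron of Ubr1 (a ubiquitin ligase gene) on the same strand, had 1080, 1.00 and 202 counts in WT versus 168, 398 and 272 in KO (log2 change 0.16, SE 1.53, adjusted p = 0.964). The B3 element of chromosome 7 at 27863626, in an intron of the zinc finger gene Zfp607a, had 952 counts in KO library 3 and none in any other library. A B3 element at chr2:177350648-177350723, which has 1 other identical copy, had 0, 374.5 and 97.0 counts in WT versus 15.0, 362.5 and 0.50 in KO (log2 change 1.00, SE 2.1, adjusted p = 0.818). 2 B2_Mm1a elements were covered in KO library 2 alone: chr2:130732838-130733024, in an intron of 4930402H24Rik on the opposite strand, with 418.5 counts there and at most 1.00 elsewhere, and chr2:156102298-156102486, overlapping an exon of the copine gene Cpne1 on the opposite strand, with 395 counts there and at most 2.08 elsewhere. The 3 elements that had counts in only 1 library, or nearly so, did not pass the filter and were not tested.

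B3A counts were concentrated in one region. The 35 B3A elements that start between 19 and 21 Mb of chromosome 8, 0.0390% of all B3A elements, gave 12.3%, 20.0% and 29.9% of B3A counts in WT versus 25.5%, 28.0% and 30.5% in KO. Outside the region, B3A levels after TMM scaling were 1412, 1564 and 1048 CPM in WT versus 1855, 1927 and 1385 in KO, and the genotypes overlapped, whereas on library totals, at 1371, 1484 and 941 versus 1930, 2041 and 1520, they did not. 2 elements of this region belong to those named by the fixed rule. The one at chr8:19679956-19680143, between genes, had 0, 0 and 1.47 counts in WT versus 49.6, 148.5 and 35.3 in KO, the smallest p-value among all B2 elements (unadjusted p = 0.000272, adjusted p = 0.0816, edgeR). Its log2 change was 5.84 (SE 0.85, edgeR). Rounded counts pooled over libraries, and scaled to each genotype's total repeat counts, were 385-fold higher in KO (95% interval 68.5 to 15291, exact binomial, counting error only). This fold rests on a WT total near zero and leaves out the spread between libraries. The one at chr8:20149328-20149504, in an intron of the predicted gene Gm21811, had 1.45, 334 and 2.25 counts in WT versus 461, 480.0 and 168 in KO, with a log2 change of 2.85 (SE 1.71, adjusted p = 0.382). WT library 2 lay within the range of the KO libraries there on the CPM scale.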

How the data were processed

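m5C meRIP–seq libraries of caRNA from WT and Tet2 KO mES cells (3 each) were used, with groups and replicate numbers from the sample titles. B2 was chosen for study, and the lists were set, with earlier results of these data known, while membership follows the annotation. The authors used Trimmomatic 0.39 to trim reads, HISAT2 2.1.0 to align them to mm10, Picard to discard duplicates and featureCounts to count repeat elements (versions per the submitters' processing notes). The deposited values are estimated counts per element and library, and why they are fractional is not given in the sources used here. Input and spike-in columns were not analysed here, so differences mix RNA abundance with m5C enrichment, are relative to other repeats, and cannot tell less RNA per cell from fewer cells.

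Counts of 4 repeat classes (DNA, LINE, LTR, SINE) were summed per subfamily or kept per element, rounded to whole numbers, filtered with filterByExpr, TMM-scaled and tested with edgeR 4.0.16 (quasi-likelihood, R 4.3.3, prior count 2). P-values were two-sided and Benjamini-Hochberg adjusted over all features, with calls at an adjusted p under 0.05. The SE was the absolute log2 change over the square root of F. Shares were compared by exact permutation tests over 20 assignments (SciPy, difference of group means). The biological coefficient of variation was 0.663 for subfamilies and 0.656 for elements. All subfamilies were named, with the 6 elements of highest mean CPM (at most 2 a subfamily) and, as none was called, the 3 with the smallest p in each direction, leaving out chromosome 18. Sequences came from the mm10 reference (GRCm38.p6), which lacked 695 B2 elements on contigs, and gene context from GENCODE M21. The edgeR step was tested on simulated data. Alternatives were other scalings, DESeq2 1.42.0, other filters, removal of high or exonic elements, a replicate block and leaving out each library.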

Additional observations from a re-analysis of the deposited data

How the results depend on the processing

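No B2 subfamily was called by any of the 16 alternatives. For single elements, the DESeq2 Wald test called 7, among 2158 of all elements, and each of the other 10 alternatives called 0. Those that left out a library called 0 of all elements too, so their 0 is not particular to B2. Over all elements, edgeR called 1 with the filter of at least 10 counts. It called 8 with DESeq2 size factors and 7 with library totals. Replicate numbers are shared by both genotypes, but the deviations of same-numbered libraries correlated at -0.0938 to -0.0360, against -0.0235 to 0.0695 for other pairs, so the numbers were not taken as pairs. With the replicate number as a block, edgeR called 0 B2 subfamilies and 0 B2 elements, and 0 of all 546 subfamilies and of all elements.

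Most directions held. The log2 ratio of the share from introns on the opposite strand ranged from -0.062 to 0.14 when each library was left out, negative without WT library 3 or KO library 1 (-0.047). That of elements under 100 bases ranged from -0.18 to 0.93, negative without KO library 2. The B4 share of SINE counts ranged from -0.035 to 0.28, negative without WT library 1, WT library 3 (-0.017) or KO library 2 (-0.0071). The change of B3 ranged from -0.00065, without WT library 2, to 0.26. The B3A element at 120945000 on chromosome 2 had -0.16 with library totals and from -0.45 to 2.64 with a library left out, negative without WT library 2, WT library 3 (-0.28) or KO library 2 (-0.35). The B3 element at 177350648 ranged from -3.12, without KO library 2, to 2.65. The cause was not tested. Under DESeq2, 5 of the named elements passed the threshold: -8.37 for the B2_Mm1a element of chromosome 11, -6.11 for that of chromosome 4, -7.30 for that of chromosome 9, and 2.56 and 8.83 for the B2_Mm2 element at 42860978 and the B3A element at 19679956. All 5 had been named for their small edgeR p-values in the same counts, and DESeq2 called 2158 of all elements. Their calls are therefore no separate support. Leaving out the B3A region of chromosome 8, an alternative added after seeing the data, turned no share result. The A box ratio lay between -0.42 and -0.33 over the libraries left out. Depth limits single elements: 127 B2 elements had counts in all 6 libraries.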

Other observations

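Some B2 elements were covered in all libraries of one genotype and in none of the other. Of the 1741 B2 elements with at least 10 counts in total, 35 (2.01%) had counts in each WT library and 0 in every KO library, and 7 (0.402%) the reverse. Over all 53192 repeat elements with this many counts, the shares were 1.18% and 0.199%, and the WT libraries were the deeper ones. Of the 35 WT-only B2 elements, 23 were B2_Mm1a, 10 B2_Mm1t and 2 B3. The 7 KO-only elements were 4 B2_Mm1a, 2 B3A and 1 B3. These sets were chosen from the counts they are described by and have no test.

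2 tested B2_Mm1a elements, both with every KO library below every WT library, had similar counts. Those at chr2:154940803-154940995 and chr6:74501405-74501597 had nearly the same counts in KO, 21.8, 0 and 1.80 against 21.7, 0 and 1.80, while in WT they had 254, 50.1 and 68.7 against 202, 54.4 and 81.2. Other tested elements shared patterns as well. The B3 elements of chromosome 2 at 177350648 and 177806822 had 0, 374.5 and 97.0 against 0, 414 and 112 counts in WT. In KO they had 15.0, 362.5 and 0.50 against 14.5, 248 and 0.50. The B3A elements of chromosome 8 at 20148656, 20270940 and 20398190 had counts only in WT library 1, KO library 1 and KO library 3. The reason was not tested. The study's mSINE qPCR primers matched 861 B2 elements (forward) and 12558 (reverse) exactly, and both matched 25. 10997 of the reverse matches were B2_Mm2, and 535 of the forward matches were B2_Mm1a.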
